A study of Mus musculus with 6 samples.

Results

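The expression of 6 genes of nitric oxide, arginine and itaconate metabolism was followed through the response of mouse bone marrow-derived macrophages to lipopolysaccharide (LPS), the outer membrane component of Gram-negative bacteria. The genes were chosen by name, with earlier results of these data known: Nos2, Gch1, Slc7a2, Ass1, Arg2 and Irg1, the older symbol of Acod1, are 6 of the 18429 genes measured. Arg1, which the same choice named, was not analysed here. Transcripts were counted by MARS-seq, in which single sorted macrophages are lysed in wells and each captured transcript is tagged with a unique molecular identifier (UMI). The comparison asks how the 6 genes responded to LPS in cells with and without the cohesin subunit RAD21, a part of the ring-shaped complex that holds chromatin loops together. There were 6 samples, namely wild-type and Rad21-/- macrophages that were untreated or had received LPS at 10 ng/ml for 2 or 8 h.

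All samples carried creERT2 on both alleles of the Rosa26 locus and received 4-hydroxy-tamoxifen at 200 nM after 96 h of culture, so the wild-type cells shared the Cre recombinase and the drug. Rad21-/- cells came from mice with loxP sites in both Rad21 alleles and wild-type cells from mice without them, per the study's methods on a mixed genetic background. Cells grew from bone marrow in L929-conditioned medium and were used on day 7. Cre is not confined to macrophages in this design, and deletion took place after the cells had started to differentiate. Each condition was 1 sample, so no difference has a replicate check and none was tested, and the intervals given take in counting error alone. The 9 comparisons share samples, since each sample enters 3 of them.

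In activated mouse macrophages, inducible nitric oxide synthase makes nitric oxide and citrulline from arginine, and it needs tetrahydrobiopterin as a cofactor. Arginine enters through cationic amino acid transporters, is remade from citrulline, and is also consumed by arginases, which make ornithine and urea. Itaconate is drawn from the tricarboxylic acid cycle at cis-aconitate, is antibacterial and inhibits succinate dehydrogenase.

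The 1362 cells were spread over samples of up to 270 cells, with the 2 h samples the smallest, and each sample held 1417409 to 2195921 UMIs, and the median cell had 5577 to 7055.5 UMIs, the highest median being that of Rad21-/- cells at 8 h. Because deeper cells show more genes, shares are given also at an equal depth of 3800 randomly drawn UMIs per cell, for which 21 to 47 shallower cells per sample were set aside. There were 17 wells with more than 25000 UMIs, and 5 of them held 45.5% of the UMIs of wild-type cells at 2 h. No well was named in more than 1 sample, and doublets were not called because cells had been sorted singly. At least 1 of 8 macrophage markers was found in 100% of the cells of every sample, with a summed level of 7745 to 10365 CPM, the UMIs of a gene per 1000000 UMIs of its cell, in wild-type and 6164 to 6855 CPM in Rad21-/- samples. Of 5 listed B cell markers, 2 were measured, Ighm and Ms4a1, and at least 1 of them had a UMI in 14.0% to 21.3% of the cells of wild-type samples, and in the Rad21-/- samples in 46.0% to 53.7%. At each time only 1 of these 2 genes had a share at least 10 points higher in Rad21-/- than in wild-type cells. Measured markers of other cell types had a UMI in any sample in these shares of cells, namely 15.5% to 19.9% for dendritic cells, 8.17% to 13.0% for mast cells and basophils, 4.18% to 9.68% for fibroblasts, 2.96% to 11.6% for T cells and 0 to 8.48% for neutrophils. Rad21 itself had a UMI in 25.9%, 26.9% and 18.7% of wild-type cells untreated, at 2 h and at 8 h, while its shares in Rad21-/- cells were 2.96%, 6.45% and 5.80%.

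Nos2 lies on chromosome 11 at 78920787-78960226 of GRCm38 and encodes the inducible nitric oxide synthase. It had a UMI in 2 of 239 untreated wild-type cells, in 6 cells at 2 h and in 243 of 257 at 8 h, which is 0.837%, 3.23% and 94.6% (exact Clopper-Pearson 95% interval 91.03% to 96.99%). In Rad21-/- cells it had a UMI in 1 of 270 cells untreated, 1 cell at 2 h and 119 of 224 at 8 h, which is 53.1% (46.4% to 59.8%). The intervals of the untreated and 2 h samples of both genotypes overlapped, so these 4 low samples could not be ordered, whereas both 8 h samples stood apart from them and from each other. The level, the mean of CPM over all cells of a sample, was 1.03, 1.90 and 1255 CPM in wild-type cells and 0.413, 0.597 and 144.7 CPM in Rad21-/- cells. Of the 16 Nos2 UMIs at 2 h in wild-type cells, 13 came from 3 wells with more than 25000 UMIs. Summed over cells, Nos2 took 956 times as large a share of UMIs at 8 h as in untreated wild-type cells, with a 95% interval of 264 to 7900 that reflects only 2 UMIs in the untreated sample. The same ratio in Rad21-/- cells was 304, with an interval of 54.3 to 12054 that rests on 1 untreated UMI.

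Gch1 on chromosome 14 at 47153895-47189413 encodes GTP cyclohydrolase, the entry enzyme of tetrahydrobiopterin synthesis. It was present before LPS, with a UMI in 25.5% of untreated wild-type cells, 48.9% at 2 h and 79.0% at 8 h. In Rad21-/- cells the shares were 20.4%, 38.7% and 69.2%. The level of Gch1 went from 50.4 to 127 and 343 CPM in wild-type cells and from 39.3 to 83.3 and 188 CPM in Rad21-/- cells, so each genotype stepped upward at both times.

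Slc7a2, at chromosome 8 40862341-40922070, encodes the cationic amino acid transporter CAT2, which brings arginine into activated macrophages. It was found in 4, 7 and 95 wild-type cells, or 1.67%, 3.76% and 37.0%, and in 3, 5 and 57 Rad21-/- cells, or 1.11%, 2.69% and 25.4%. Levels were 3.08, 3.96 and 107 CPM in wild-type and 1.09, 4.85 and 77.1 CPM in Rad21-/- cells. As with Nos2, the untreated and 2 h intervals overlapped and the 8 h samples lay above them.

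Ass1 at chromosome 2 31470270-31520670 encodes argininosuccinate synthase, which returns citrulline to arginine. A UMI was present in 13.0%, 11.3% and 31.9% of wild-type cells and in 7.04%, 5.38% and 11.2% of Rad21-/- cells in the same order of times. The level was 22.3, 14.5 and 67.5 CPM in wild-type cells and 11.6, 8.04 and 11.2 CPM in Rad21-/- cells. The wild-type sample at 8 h was the only one whose interval did not overlap that of any other sample.

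Arg2 at chromosome 12 79130788-79156301 encodes the mitochondrial arginase. Its shares were 7.95%, 12.4% and 24.5% in wild-type cells and 4.81%, 10.8% and 9.38% in Rad21-/- cells. Its levels were 14.4, 14.3 and 44.3 CPM in wild-type and 7.19, 16.3 and 12.4 CPM in Rad21-/- cells. Again the wild-type sample at 8 h was the highest, and its interval of 19.4% to 30.2% lay above those of the other 5 samples.

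Irg1, at chromosome 14 103047012-103056573 under the symbol Acod1, encodes aconitate decarboxylase, the enzyme that makes itaconate. It had a UMI in 18 of 239 untreated wild-type cells (7.53%), 176 at 2 h (94.6%) and 256 of 257 at 8 h (99.6%). Among Rad21-/- cells it was found in 1 of 270 untreated (0.370%), in 69.4% at 2 h and in 222 of 224 at 8 h (99.1%). The level was 18.6, 1140 and 2910 CPM in wild-type cells and 0.623, 266 and 1453 CPM in Rad21-/- cells. Irg1 was thus in most cells of both genotypes at 2 h, a time at which Nos2 was found in 3.23% of wild-type cells.

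**Figure D1:**
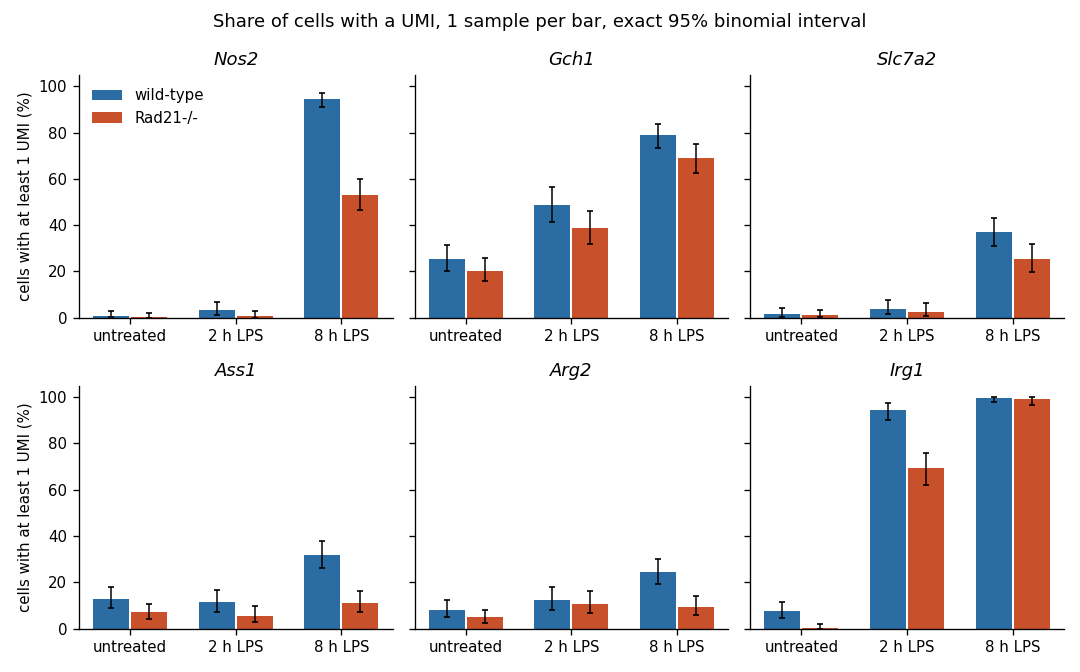
Percentage of cells with at least 1 UMI of each gene (vertical axis) in wild-type (blue) and Rad21-/- (orange) samples untreated and after 2 or 8 h of LPS. Each bar is 1 sample and the error bars are exact 95% binomial intervals over its cells. Nos2 and Slc7a2 appear at 8 h, Irg1 is already in 94.6% of wild-type cells at 2 h, and the Ass1 and Arg2 bars stand out only in wild-type cells at 8 h.

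Reference promoter sequence was at hand for 3 of the 6 genes, Acod1, Gch1 and Ass1. Of these, Acod1 and Gch1 were already higher at 2 h and Ass1 at 8 h, in wild-type cells. The 250 bases before each start site are shown because they hold the letters that the start of these genes has in the genome, read from RefSeq for GRCm38.p6, at chr14:103046762-103047011 on the plus strand for Acod1, chr14:47189414-47189663 on the minus strand for Gch1 and chr2:31470020-31470269 on the plus strand for Ass1. Capitals mark matches, on either strand, to 5 motifs, namely the NF-kappaB motif, the interferon element GAAANNGAAA, the interferon-gamma site TTCNNNGAA, the AP-1 site TGANTCA and the TATA box TATAAA.
Acod1: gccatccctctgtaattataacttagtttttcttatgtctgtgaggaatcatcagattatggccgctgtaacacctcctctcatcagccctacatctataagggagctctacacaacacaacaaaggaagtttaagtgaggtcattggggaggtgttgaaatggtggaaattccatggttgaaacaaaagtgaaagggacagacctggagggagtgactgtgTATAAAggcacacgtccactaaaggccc
Gch1: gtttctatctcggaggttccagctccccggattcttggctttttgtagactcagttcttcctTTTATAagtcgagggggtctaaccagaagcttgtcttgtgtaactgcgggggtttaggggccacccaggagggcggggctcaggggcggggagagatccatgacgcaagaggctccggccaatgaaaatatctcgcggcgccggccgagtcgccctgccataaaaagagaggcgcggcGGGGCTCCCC
Ass1: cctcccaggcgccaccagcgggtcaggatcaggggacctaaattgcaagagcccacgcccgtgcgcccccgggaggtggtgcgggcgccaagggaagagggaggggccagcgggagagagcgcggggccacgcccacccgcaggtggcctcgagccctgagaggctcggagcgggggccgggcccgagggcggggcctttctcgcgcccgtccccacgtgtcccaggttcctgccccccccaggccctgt
Acod1 held TATAAA 28 to 23 bases before the start, and Gch1 held an NF-kappaB match in the last 10 bases and the TATA letters on the opposite strand 188 to 183 bases before the start. Ass1 held no match to any of the 5 motifs, and its window had a GC content of 75.6%, against 59.2% for Gch1 and 44.4% for Acod1. Of 32851 promoter windows of this length, 12.4% held the TATA letters, 7.25% the NF-kappaB motif, 7.02% the interferon-gamma site, 6.75% the AP-1 site and 2.98% the interferon element. A match describes the letters only and does not show binding.

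To read the members against the rest of the transcriptome, every gene with at least 20 UMIs in the 2 samples compared was counted as higher or lower when its share of cells moved by at least 10 percentage points or its level by at least 2-fold with 1 CPM added. Nos2 and Slc7a2 had too few UMIs for this in each comparison without an 8 h sample, which left 4 members there.

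In wild-type cells at 2 h, 2 of the 4 countable members, Irg1 and Gch1, were higher than untreated by share and by level, where 6.46% of all genes passed for share and 4.79% for level. Irg1 gained 87.1 percentage points (95% interval 81.2 to 90.7) and was 58.2-fold higher in level, and Gch1 gained 23.4 points (14.2 to 32.2) and was 2.49-fold higher. Arg2 moved by 4.42 points and Ass1 by -1.68 points, with intervals that included 0. At 8 h all 6 members were higher than untreated by both measures, beside 7.47% of all genes for share and 6.77% for level. Their share gains were 93.7 points for Nos2, 92.1 for Irg1, 53.5 for Gch1, 35.3 for Slc7a2, 18.9 for Ass1 and 16.6 for Arg2, and the smallest, that of Arg2, had an interval of 10.2 to 22.8 and came to 7.62 points after thinning. Levels were 149-fold higher for Irg1, 26.5-fold for Slc7a2, 6.70-fold for Gch1, and 2.94-fold for both Ass1 and Arg2. The median log2 ratio of all genes in this comparison was -0.26.

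Between 2 and 8 h in wild-type cells, 5 of 6 members gained at least 10 points, beside 4.44% of all genes, and all 6 were at least 2-fold higher, beside 6.71%. The exception by share was Irg1, which had little room left and gained 4.99 points, while its level was 2.55-fold higher. Ass1 gained 20.6 points and was 4.41-fold higher, and Arg2 gained 12.1 points and was 2.97-fold higher, so in wild-type cells these 2 genes changed in the later interval.

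In Rad21-/- cells fewer members passed at 8 h than in wild-type cells, but not at 2 h. At 2 h the same 2 of 4 members were higher than untreated by share, Irg1 by 68.98 points (61.8 to 75.2) and Gch1 by 18.3 points (9.85 to 26.7), beside 5.85% of all genes. After thinning Gch1 was 9.18 points and 1.72-fold higher, so at equal depth it passed neither limit. By level 3 of 4 passed, beside 4.16% of all genes, with Arg2 the addition at 2.11-fold on 24 against 16 UMIs, and after thinning its log2 ratio was 0.31. At 8 h 4 of 6 members were higher by share, beside 14.0% of all genes, and 4 by level, beside 7.11%. These were Irg1 with 98.7 points, Nos2 with 52.8, Gch1 with 48.8 and Slc7a2 with 24.3. In the same order their levels were 896-fold, 103-fold, 4.69-fold and 37.3-fold higher than untreated, and Irg1 was already 165-fold higher at 2 h. For Irg1 and Slc7a2 these ratios exceeded those of wild-type cells, but they rest on 1 and 3 untreated UMIs. After thinning Slc7a2 was 36.1-fold higher, against 39.9-fold in wild-type cells. Ass1 moved by 4.12 points (-0.954 to 9.53) with a log2 ratio of -0.05, and Arg2 by 4.56 points (0.028 to 9.51) with a log2 ratio of 0.72, so neither passed. From 2 to 8 h the same count of 4 passed by share, beside 9.98% of all genes, and by level, beside 6.95%, and here Irg1 was among those by share, with 29.8 points.

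**Figure D2:**
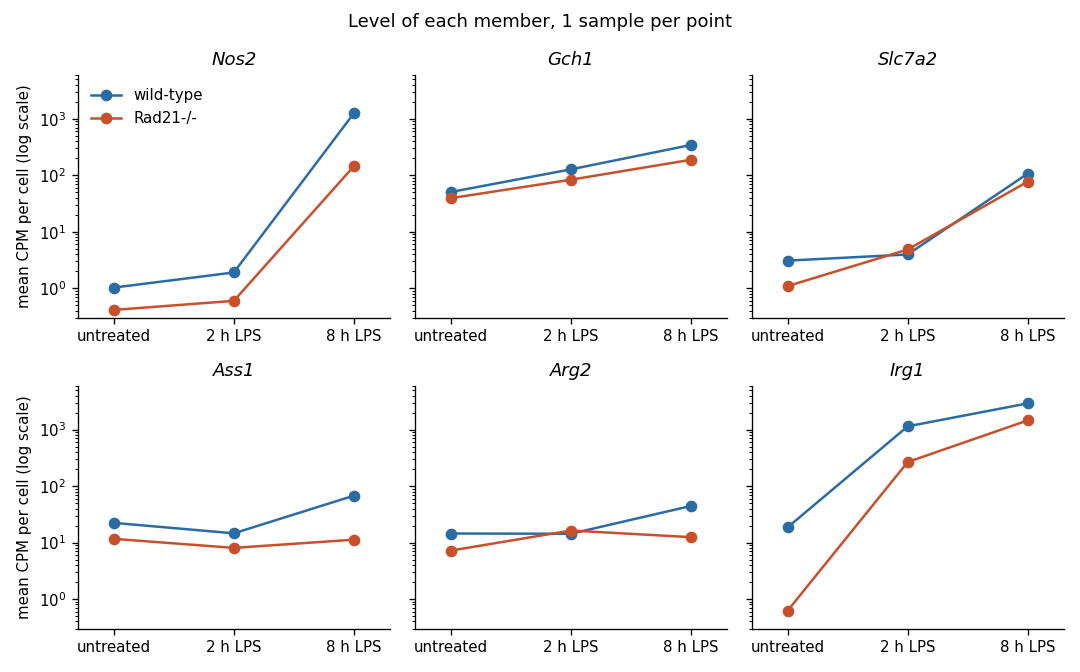
Level of each gene, as the mean of CPM over all cells of a sample on a log axis, in wild-type (blue) and Rad21-/- (orange) samples by time of LPS. Each point is 1 sample, and no error bar is drawn because there are no replicates. Lines are furthest apart for Nos2 at 8 h, at 1255 against 144.7 CPM, and for Irg1 untreated, at 18.6 against 0.623 CPM.

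Set side by side at the same time, Rad21-/- cells had lower shares than wild-type cells for each member in each of the 3 conditions, though many of these differences were within counting error. Untreated, none of the 4 countable members differed by 10 points, where 3.26% of all genes were lower. By level 1 of 4 was at least 2-fold lower, beside 5.14% of all genes, and this was Irg1. Its share was 7.16 points lower (interval of the difference -11.2 to -3.96) and its share of summed UMIs 0.028 times that of wild-type cells (95% interval 0.001 to 0.168), on 1 UMI in Rad21-/- and 29 in wild-type cells. Ass1 was 5.93 points lower (-11.4 to -0.721). Irg1 was found in 20.9% of the 43 untreated wild-type cells of 1 library pool and in 0 to 8.51% of those of the remaining pools.

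At 2 h, 2 of 4 members had a share at least 10 points lower in Rad21-/- cells, beside 5.11% of all genes. Irg1 was 25.3 points lower (-32.6 to -17.8), and after thinning the gap was 39.4 points. Gch1 was 10.2 points lower (-20.0 to -0.139) and 9.22 points lower after thinning, so it sat at the limit. By level 1 of 4 was at least 2-fold lower, beside 7.36%, with Irg1 at a log2 ratio of -2.09, which is 4.27-fold. Ass1 was 5.91 points lower (-11.8 to -0.232), and for Arg2, 1.61 points lower (-8.24 to 4.99), no difference was detectable at this depth.

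At 8 h, 4 of 6 members had a share at least 10 points lower in Rad21-/- cells and none a higher one, while of all genes 2.87% were lower and 17.5% higher. The 4 were Nos2 with 41.4 points (-48.3 to -34.1), Ass1 with 20.7 (-27.6 to -13.5), Arg2 with 15.1 (-21.6 to -8.50) and Slc7a2 with 11.5 (-19.5 to -3.20). Gch1 was 9.79 points lower (-17.6 to -1.96), just short of the limit, and Irg1 0.504 points lower (-2.83 to 1.39). Rad21-/- cells were the deeper ones at 8 h. With equal UMIs per cell the gap was 54.1 points for Nos2, 27.2 for Gch1, 18.5 for Ass1, 9.49 for Arg2, 6.72 for Slc7a2 and 2.52 for Irg1. By level 4 of 6 were at least 2-fold lower, beside 4.89% of all genes. Nos2 was 8.62-fold lower, Ass1 5.61-fold, Arg2 3.37-fold and Irg1 2.00-fold, whereas Gch1 was 1.82-fold lower and Slc7a2 1.38-fold. The median log2 ratio of all genes was 0.19 in the same comparison. With that median divided out the log2 ratio was -3.30 for Nos2, -1.19 for Irg1 and -1.06 for Gch1, which then passed 2-fold as well.

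The genotype difference was also divided between how many cells were positive and how much each held. The log2 ratio of the mean level without added CPM splits exactly into a part from the share of positive cells and a part from the CPM per positive cell. For Nos2 the ratio of -3.12 was made of -0.83 from the share and -2.29 from the level per positive cell, which was 1328 CPM in wild-type and 272 CPM in Rad21-/- cells. With equal UMIs per cell these parts were -1.27 and -1.89. For Irg1 at 8 h the share gave -0.0073 of -1.002 and the level per positive cell, 2921 against 1466 CPM, the remainder. Nearly all cells of both genotypes held Irg1 at 8 h, so the share could contribute little. At 2 h, the Irg1 ratio of -2.10 split into -0.45 and -1.65. For Ass1 at 8 h the share part was the larger, -1.52 against -1.07, and for Arg2 it was -1.39 against -0.45, or -1.46 against -0.08 with equal UMIs per cell. Slc7a2 had -0.54 from the share and 0.06 from the level, so the mean CPM per positive cell was alike in both genotypes. Positive cells at 8 h held a median of 2 Slc7a2 UMIs in wild-type and 1 in Rad21-/- cells. The tenth of cells with the most Slc7a2 UMIs held 54.7% of them in wild-type and 80.2% in Rad21-/- cells. For genes with mostly 1 UMI per positive cell the CPM of a positive cell follows depth, and the 8 h median was 5819 UMIs in wild-type and 7055.5 in Rad21-/- cells.

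Over single cells, the whole distribution of Nos2 at 8 h lay lower in Rad21-/- cells. The median wild-type cell had 1082 CPM with a middle range between quartiles of 628 to 1641, and the median Rad21-/- cell had 86.9 CPM with quartiles of 0 and 197. In all, 1 of 224 Rad21-/- cells exceeded the wild-type median. With 3800 UMIs in every cell, at least 5 Nos2 UMIs were found in 47.4% of wild-type cells and in 1 of 203 Rad21-/- cells. Irg1 at 2 h had a median of 1072 CPM in wild-type and 187 CPM in Rad21-/- cells, with 48.5% of thinned wild-type and 1.95% of thinned Rad21-/- cells at 5 UMIs or more. By 8 h the medians were 2851 and 1233 CPM, the thinned counts 212 of 228 and 103 of 203, and 18 of 224 Rad21-/- cells exceeded the wild-type median. Irg1 therefore overlapped between genotypes more at 8 h than Nos2 did.

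**Figure D3:**
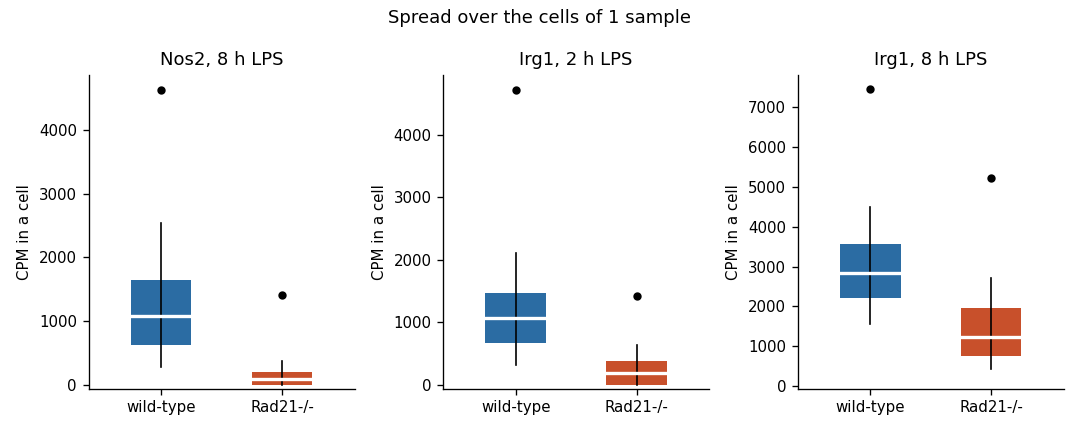
CPM per cell of Nos2 at 8 h and of Irg1 at 2 h and 8 h, by genotype, over the cells of 1 sample each. Boxes span the quartiles, white lines are medians, vertical lines run from the 10th to the 90th percentile and dots are the highest cell. The Nos2 box of Rad21-/- cells, from 0 to 197 CPM, lies below that of wild-type cells, from 628 to 1641 CPM.

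Library pools were each prepared from cells of a single time and most held both genotypes, so the genotypes can be set side by side within a pool. Pools with 10 or more cells of wild-type and of Rad21-/- origin each were used. In 6 such pools at 8 h, Nos2 was found in 90.9% to 100% of wild-type and 41.3% to 61.5% of Rad21-/- cells. The difference was -53.8 to -32.1 points, and the groups of pool values did not overlap. Ass1 and Arg2 had lower shares in Rad21-/- cells in 6 of 6 pools, and Gch1 and Slc7a2 in 5 of 6. The level of Irg1 was lower in 6 of 6 pools, with 2421 to 3333 CPM in wild-type and 1195 to 1574 CPM in Rad21-/- cells. At 2 h the share of Irg1 was lower in 4 of 4 pools, by 14.6 to 35.6 points. Untreated, Irg1 was lower in 7 of 8 pools, and in the remaining pool it was found in no cell of either genotype. Pools are parts of the same samples and not replicates.

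**Figure D4:**
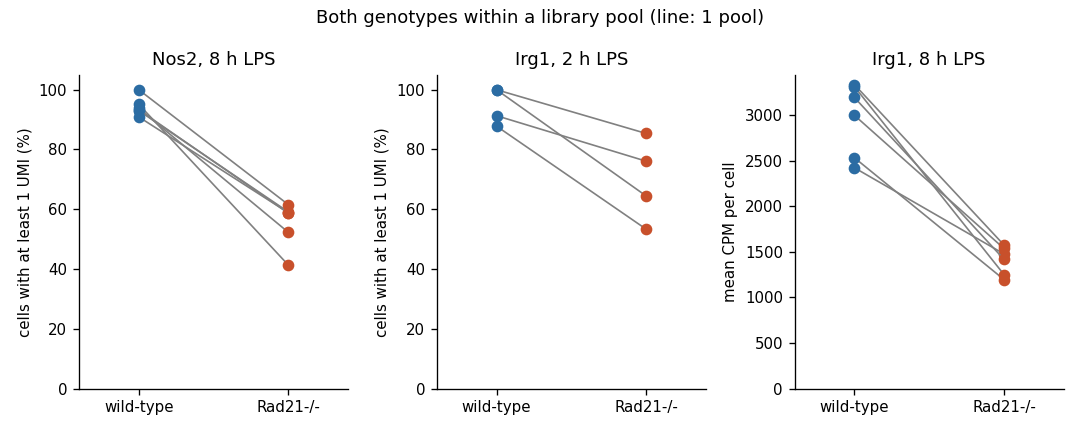
Values of wild-type (blue) and Rad21-/- (orange) cells of the same library pool, joined by a line, for the share of cells with Nos2 at 8 h (6 pools), the share with Irg1 at 2 h (4 pools) and the mean CPM of Irg1 at 8 h (6 pools). Pools with 10 or more cells of wild-type and of Rad21-/- origin each are drawn. Every line slopes downward, and Nos2 goes from 90.9% to 100% down to 41.3% to 61.5%.

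Cells with a UMI of either measured B cell marker were more frequent in Rad21-/- samples, so the members were also set beside these 2 markers. Among Rad21-/- cells at 8 h, Nos2 was found in 51.5% of the 103 cells with an Ighm or Ms4a1 UMI and in 54.5% of the 121 cells without, at 112 and 173 CPM. Irg1 was found in 98.1% and 100% of them. When all cells with such a UMI were left out of both genotypes, an alternative chosen after the marker shares were seen, Nos2 had a share 40.0 points lower in Rad21-/- cells at 8 h. The log2 ratio of level was then -2.87 for Nos2 and -0.86 for Irg1, so Irg1 no longer reached 2-fold. Slc7a2 at 8 h then differed by -9.38 points and Gch1 at 2 h by -6.79, so both fell short of 10 points. Rad21 UMIs were left in 13 Rad21-/- cells at 8 h, of which 10 held Nos2, against 109 of the 211 cells without, with median depths of 8606 and 7018 UMIs.

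Several members were often found in the same cell after 8 h. Of the 6 genes, 3 or more had a UMI in 0.837%, 15.1% and 91.4% of wild-type cells by time and in 0.370%, 8.06% and 57.1% of Rad21-/- cells. After thinning the shares at 8 h were 84.6% and 27.6%, and at 2 h 5.45% and 0.649%. With all UMIs, Nos2 and Gch1 were together in 92 Rad21-/- cells at 8 h where the product of their shares gave 82.3, and cells with Nos2 had a median of 7667 UMIs against 6301 in cells without. Nos2 and Ass1 were together in 17 cells where the product gave 13.3. In thinned Rad21-/- cells at 8 h, Nos2 and Gch1 were together in 36 cells where the product gave 34.6, Nos2 and Slc7a2 in 14 where it gave 14.6, and Nos2 and Ass1 in 1 where it gave 2.69. In thinned wild-type cells Nos2 and Ass1 were together in 44 cells where the product gave 46.3. Gch1 was thus found in 46.2% of thinned Rad21-/- cells with Nos2 and 43.2% of those without, and its level was 209 and 158 CPM.

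**Figure D5:**
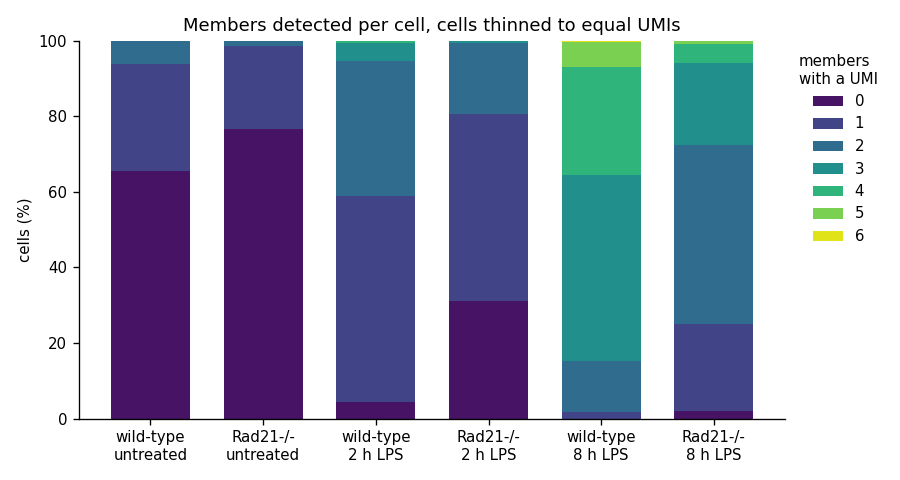
Percentage of cells (vertical axis) in which 0 to 6 of the genes had a UMI, after every cell was thinned to 3800 UMIs, for the 6 samples. Each bar is 1 sample. At 8 h, 84.6% of wild-type and 27.6% of Rad21-/- cells held 3 or more, and untreated cells of either genotype held at most 2.

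Other genes of the same pathways were taken from lists, and these moved in differing directions. Of 13 listed genes for tetrahydrobiopterin and nitric oxide synthase partners, 9 were countable in wild-type cells at 8 h against untreated. None had a share at least 10 points higher and 3 had one at least 10 points lower, beside 9.66% of all genes that were lower, with a median of -7.16 points where the median of all genes was -0.946. Spr, which encodes sepiapterin reductase of the same cofactor pathway as Gch1, went from 15.1% to 3.50% of cells, and Qdpr, which encodes the reductase that regenerates the cofactor, from 35.6% to 20.2%. In Rad21-/- cells none of 9 passed in either direction, and the median was 1.01 points beside 2.50 for all genes. Between genotypes at 8 h, 3 of 9 had a share at least 10 points higher in Rad21-/- cells, beside 17.5% of all genes. The 3 were Ddah1, Nosip and Spr, the last with 14.3% against 3.50%. After thinning the difference was 6.18 points for Spr, 6.56 for Nosip and 12.5 for Ddah1. The list median was 8.34 points, and 2.11 after thinning.

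Among 8 genes of arginine and citrulline supply, Slc3a2, which encodes the shared heavy chain of several amino acid transporters, went from 49.4% untreated to 68.8% of wild-type cells at 2 h, and in Rad21-/- cells from 41.9% to 63.98%. At 8 h it was found in 55.3% of wild-type and 37.1% of Rad21-/- cells, with a log2 ratio of level of -1.09. It was the only one of the 5 countable genes of this list that was lower in Rad21-/- cells by 10 points, and 2 were higher, beside 2.87% of all genes that were lower and 17.5% that were higher. Slc7a7, which encodes a light chain that exports arginine together with that heavy chain, was among the higher ones with 27.2% against 14.0%, and after thinning its difference was 4.47 points. Asl, which acts after Ass1 in remaking arginine, was the other with 27.7% against 14.8%, and after thinning its difference was 1.24 points.

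A further list held genes of ornithine, polyamine, proline and creatine metabolism. Odc1, the ornithine decarboxylase that opens polyamine synthesis, was found in 2.51% of untreated wild-type cells, 20.97% at 2 h and 7.00% at 8 h. At 2 h it was found in 4.30% of Rad21-/- cells, a level of 6.45 CPM against 35.5 CPM. Sat1, which acetylates polyamines for export, was higher in untreated Rad21-/- cells, with 73.7% against 54.8%, and Paox, an oxidase of acetylated polyamines, likewise with 11.9% against 0.837%. Azin1 was lower there, with 25.9% against 36.0%. Of 14 countable genes untreated, these 2 were at least 10 points higher by share and 1 was at least 10 points lower. Among all genes 2.24% were higher and 3.26% lower. By level 1 was at least 2-fold higher and 3 lower, beside 2.64% and 5.14%. The list median was -2.43 points beside 0.054 for all genes. Of the 16 genes of this list countable between genotypes at 8 h, 3 had a share at least 10 points higher in Rad21-/- cells. That is near the 17.5% of all genes that were higher. The median was 4.71 points beside 3.64 for all genes.

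For the 26 genes of the tricarboxylic acid cycle and its neighbours, from which itaconate is drawn, 1 had a share at least 10 points higher and 8 a lower one in wild-type cells at 8 h against untreated, beside 7.47% of all genes that were higher and 9.66% that were lower. The median was -7.38 points beside -0.946 for all genes. Idh1, which makes 2-oxoglutarate from isocitrate in the cytosol, went from 41.4% to 17.9% of cells, and Sdhc, a subunit of succinate dehydrogenase, from 63.2% to 40.1%. In Rad21-/- cells 2 were higher and 1, Idh2, lower, beside 14.0% of all genes that were higher and 2.27% that were lower, with a median of 2.87 points beside 2.50 for all genes. Between genotypes at 8 h, 14 of 26 had a share at least 10 points higher in Rad21-/- cells. None was lower by that limit, while of all genes 17.5% were higher and 2.87% lower. The median was 10.7 points beside 3.64 for all genes. After thinning the list median was 3.35 points. No thinned median of all genes is given, so the list cannot be set against all genes at equal depth. Slc25a10, the mitochondrial dicarboxylate carrier, had 42.4% against 13.2%, and Sdhc 62.1% against 40.1%.

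Genes whose level followed a member most closely over the 6 samples were found by Pearson's r of the log2 level among 11913 genes, as a description with no test, since 6 points that share depth and time leave many genes near 1. For Nos2 these were Prrc2c, Lincpint, Ccdc25, AW112010 and Saa1, with r from 0.993 to 0.995. AW112010 went from 3.77% of untreated to 80.5% of wild-type cells at 8 h and 55.8% of Rad21-/- cells at 8 h. In wild-type and Rad21-/- cells at 8 h, Saa1 had 51.4% and 22.3% and Ccdc25 32.7% and 28.6%. Lincpint had 67.3% and 66.5% there, and Prrc2c 40.1% and 44.2%. For Irg1 they were Clec2g, Cystm1, Tgm2, Tnfsf15 and Clec4e, and Clec4e, the receptor Mincle, was found in 87.1% of wild-type and 68.3% of Rad21-/- cells at 2 h. Gch1 was followed by Layn, Dtx3l, Tnfrsf1b, Slc2a1 and Jak2, and Slc7a2 by Lyn, Daam1, Slco3a1, Ube2d3 and Fpr1. Arg2 had Scara5, Apol9a, Prex1, Tbrg1 and Gm14253. Ass1 had Ms4a6b, Fcgr4, Lgals8 and Whsc1l1, and Fcgr4, an activating receptor for antibody, showed the same single high sample, with 67.3% of wild-type cells at 8 h beside 28.1% of Rad21-/- cells.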

How the data were processed

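MARS-seq libraries of single bone marrow-derived macrophages were analysed. The authors used GEMTools 1.7.0, the mouse build GRCm38.p4 and Gencode M8 for mapping, dropped wells by their share of spike-in and mapped reads, collapsed UMIs, and deposited raw counts of UMIs, 1 value for each gene in each cell. Cells were assigned to samples and to 24 library pools by their names. From these counts the share of cells with at least 1 UMI, the mean of CPM per cell, summed UMIs and values thinned to 3800 UMIs were derived in Python (3.11.15). The packages were scipy 1.17.1, pandas 2.3.3 and numpy 2.4.6, with matplotlib 3.10.9 for plots. Intervals are at 95%: Clopper-Pearson for shares, Newcombe for differences of shares, exact conditional for ratios of summed UMIs. PCR and sampling error beyond counting is not covered.

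Each condition was 1 sample, so no test was made in any of the 9 comparisons. Steps were tested on simulated counts. The genes and the pathway lists were chosen with earlier results of these data known. Named are all members, up to 4 genes per list and comparison with the largest change in share past 10 points or 2-fold, the 5 genes most alike to a member with at least 100 UMIs, and Rad21. The text picks its list genes from those that this rule gives. Alternatives were thinning, at least 2 UMIs per positive cell, leaving out deep wells, each pool or cells with B cell markers, values within pools, a limit of 5 points, 5 CPM added, summed UMIs, scaling by the median ratio, all genes with a UMI, and likeness by share. Coordinates are those of RefSeq for GRCm38.p6. Arg1 and some genes of the lists were not analysed here. 1 of the genes most alike to Ass1 is not reported here.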

Additional observations from a re-analysis of the deposited data

Results flagged for a closer look

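Medians of 5 of the 6 pathway lists had opposite signs in the genotypes at 8 h against untreated. The median of all genes was -0.946 points in wild-type and 2.50 in Rad21-/- cells, and 2 of the lists also lay on opposite sides of it, below in wild-type and above in Rad21-/- cells. For the ornithine, polyamine, proline and creatine genes the median difference in share was -5.19 points in wild-type and 2.996 points in Rad21-/- cells, and after thinning -3.41 and 0.501. For the genes of the tricarboxylic acid cycle and its neighbours it was -7.38 points in wild-type and 2.87 in Rad21-/- cells, and after thinning -6.46 and -2.38, which have the same sign. The thinned list medians have no thinned median of all genes beside them. Median depth at 8 h was 5819 UMIs in wild-type and 7055.5 in Rad21-/- cells, and its part was not tested beyond the thinning. The difference between the genotypes was not tested, since each condition was 1 sample. No condition had enough samples to look for a sample that stands apart.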

How the results depend on the processing

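No paired analysis was possible because each condition was 1 sample and the labels carry no replicate numbers. Thinning to 3800 UMIs changed the percentage of cells with 3 or more members to 0 and 0 in untreated wild-type and Rad21-/- cells, 5.45 and 0.649 at 2 h, and 84.6 and 27.6 at 8 h, since fewer UMIs are read per cell. It left 1 member higher by share and 1 by level at 2 h in Rad21-/- cells and 1 lower by share in Rad21-/- against wild-type cells at 2 h. That last count was also 1 without wells over 25000 UMIs and without cells with a B cell marker UMI. With at least 2 UMIs per positive cell, 1 member was higher by share in Rad21-/- cells at 2 h and 2 were lower in Rad21-/- against wild-type cells at 8 h. With 5 CPM added 1 member was higher by level in Rad21-/- cells at 2 h, and with summed UMIs 2 were lower by level in Rad21-/- against wild-type cells at 2 h. A limit of 5 points made 3 members lower in untreated Rad21-/- cells. Over all genes with a UMI, 8.01% were at least 2-fold lower in Rad21-/- cells at 2 h against untreated, in place of 4.75%. In untreated Rad21-/- against wild-type cells, 4.94% were at least 2-fold higher, in place of 2.64%. Leaving out each library pool gave 0 to 1 members 2-fold lower in Rad21-/- cells at 2 h against untreated, 1 to 2 lower by level in untreated Rad21-/- against wild-type cells, and at 2 h 1 to 2 lower by share and 1 to 2 by level. At 8 h it gave 3 to 5 members lower by share and 3 to 4 by level in Rad21-/- against wild-type cells: without 1 pool Slc7a2 differed by -7.46 points, without another Irg1 had a log2 ratio of -0.96, and the share difference of Gch1 ranged from -12.2 to -6.20 points. Within single pools, the share of Gch1 at 2 h was 5.85 points higher and that of Slc7a2 at 8 h 1.74 points higher in Rad21-/- cells, against the direction over all cells. Among differences under 10 points, Gch1 was up to 10.6 points higher in Rad21-/- cells of a pool untreated and 6.67 at 8 h, Ass1 up to 6.45 and Arg2 up to 4.62 at 2 h. The cause of these changes was not tested unless named. The 5 genes most like each member shared 0 or 1 genes with those found by share. Shares near the limit of 1 UMI per cell, as for Nos2 untreated, are limited by depth.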

Other observations

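Genes linked to alternative activation, the macrophage state in which arginase is best known, were also counted. Il4ra, a chain of the interleukin 4 receptor, was found in 11.7% of untreated and 66.5% of 8 h wild-type cells, and in 16.3% and 31.7% of Rad21-/- cells. Mrc1, the mannose receptor, went from 73.2% to 47.5% of wild-type cells and from 72.6% to 53.6% of Rad21-/- cells. Clec10a, a lectin, had a share of 9.21% in wild-type and 25.9% in Rad21-/- cells before LPS, and at 8 h of 5.84% and 8.48%. Egr2, a transcription factor, was found in 28.5% of wild-type and 10.2% of Rad21-/- cells at 2 h. Of the 7 countable genes of this list at 2 h, Egr2 alone had a share at least 10 points lower in Rad21-/- cells. Clec10a alone had one at least 10 points higher. Of all genes, 5.11% were lower and 3.50% higher. By level 3 genes, Clec10a, Il4ra and Ccl24, were at least 2-fold higher and 1, Egr2, lower, beside 4.55% and 7.36% of all genes. The median share difference of the list was 3.76 points, beside -0.538 for all genes.

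A list of 10 genes was linked to NRF2, the regulator of antioxidant genes that itaconate is known to activate. At 8 h against untreated, 1 had a share at least 10 points higher in wild-type cells and 3 in Rad21-/- cells. Among all genes 7.47% and 14.0% were that much higher. The list medians were 1.95 and 6.07 points beside -0.946 and 2.50 for all genes. Txnrd1, which encodes thioredoxin reductase, went from 33.5% to 52.9% of wild-type and from 23.7% to 58.04% of Rad21-/- cells. Prdx1, a peroxiredoxin, was lower in Rad21-/- cells at each time, with 75.6% against 90.8% untreated, 72.0% against 86.6% at 2 h and 76.8% against 87.2% at 8 h. No test was made of these values.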
